A study of Mus musculus with 2 samples.

Results

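The factors described here are 10 genes of the naive pluripotency network, *Nanog*, *Zfp42*, *Esrrb*, *Tfcp2l1*, *Klf2*, *Klf4*, *Klf5*, *Tbx3*, *Prdm14* and *Nr0b1*. They were chosen by name among the 54146 genes listed, and each of the 10 was found once. The study's inDrop experiment holds 1 library of wild-type (WT) and 1 of *Lin28a* knockout (KO) mouse ES cells, where single cells are captured in droplets and each captured transcript is counted once by its unique molecular identifier (UMI). Both cell populations were untreated ES cells derived from the inner cell mass, grown for 2 days on gelatin and mouse embryonic fibroblast feeders in medium with LIF and the 2i inhibitors. Per the methods, the knockout was made with CRISPR/Cas9 against the second exon of *Lin28a*, which encodes an RNA-binding protein, and both lines are single clones of transfected E14 ES cells, so that each library is 1 clone in 1 culture.

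With 1 library per genotype no test was possible, and what belongs to the genotype and what belongs to the culture cannot be told apart. Kept barcodes had at least 2000 UMIs and at most 20% of UMIs on mitochondrial genes, which left 1642 of the 4329 WT and 1110 of the 6060 KO barcodes. Their median depths were 6492.5 and 7285 UMIs. Levels are CPM, the UMIs of a gene scaled to the same total in each library, summed over the kept cells. Gene positions are those of GENCODE M21 on GRCm38. Exact 95% intervals follow the values in brackets: Poisson for a level, binomial for a share of cells, conditional on both counts for a ratio. All of these cover counting error only. The counts come from transcript ends and are not scaled by length, so no order of levels between different genes is drawn.

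Naive pluripotency is the state of the epiblast before implantation, which ES cells keep in culture. A network of transcription factors around *Pou5f1* and *Sox2* holds it, and its members activate one another so that the loss of one is often tolerated. In 2i medium with LIF the network receives 3 inputs: LIF acts through Stat3, mainly on *Klf4* and *Tfcp2l1*, and helps to sustain *Tbx3*; inhibition of Gsk3 relieves the repressor Tcf7l1 from *Esrrb* and other targets; and inhibition of MEK removes a signal that drives cells out of the state. *Nanog*, *Klf2*, *Prdm14* and *Zfp42* are classical genes that go down when cells leave it.

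The targeted gene was lower in the library labelled knockout. *Lin28a* had 1224 UMIs, 107 CPM (101 to 113), in WT and 322 UMIs, 36.4 CPM (32.5 to 40.6), in KO cells, a ratio of 0.340 (0.3 to 0.385). Transcript ends were counted, so these UMIs do not read the edited exon itself. Both libraries carried the transcripts that define ES cells. *Pou5f1*, the central pluripotency factor, was found in 95.8% of WT and 95.6% of KO cells, and *Sall4*, *Utf1* and *Tdgf1* stood at 121 to 310.4 CPM in both libraries. *Sox2* was lower in KO cells, at 158.6 CPM in WT and 88.6 CPM in KO cells, and was found in 60.3% and 45.6% of cells. Cells rich in fibroblast transcripts were also present: those with at least 1% of their UMIs on *Col1a1*, *Col1a2* and *Col3a1*, called collagen-rich, numbered 30 in WT and 8 in KO cells. The 10 fibroblast markers summed to 1226 CPM in WT and 625 CPM in KO cells, and 4 of the 5 with at least 200 UMIs were at least 1.5-fold lower in the latter.

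The 250 bases before the RefSeq start are shown for *Nanog* and *Zfp42*, the pair with the highest r over cells before depth was made equal, and for *Klf4*, one of 2 members, with *Tbx3*, that also occurred at a sizeable level in cells rich in collagen transcripts (GRCm38.p6, printed 5′ to 3′ on the strand of the gene). The windows are chr6:122707239-122707488 on the plus strand for *Nanog*, chr8:43307010-43307259 on the minus strand for *Zfp42* and chr4:55532476-55532725 on the minus strand for *Klf4*. Capitals mark a match to the Pou-Sox composite in *Nanog* (the letters shown, with any base allowed where the Pou and Sox parts meet), to the octamer ATTTGCAT in *Zfp42* and to the Klf-type box CCNCNCCC, on either strand, in *Klf4*.
Nanog: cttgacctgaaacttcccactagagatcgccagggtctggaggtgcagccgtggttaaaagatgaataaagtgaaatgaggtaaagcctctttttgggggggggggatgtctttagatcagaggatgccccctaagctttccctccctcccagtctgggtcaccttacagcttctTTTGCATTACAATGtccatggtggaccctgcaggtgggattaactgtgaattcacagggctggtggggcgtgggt
Zfp42: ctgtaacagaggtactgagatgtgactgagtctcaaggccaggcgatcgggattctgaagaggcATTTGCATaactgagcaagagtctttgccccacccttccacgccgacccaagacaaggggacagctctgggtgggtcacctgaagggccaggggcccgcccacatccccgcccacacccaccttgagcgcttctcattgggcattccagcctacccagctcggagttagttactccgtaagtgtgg
Klf4: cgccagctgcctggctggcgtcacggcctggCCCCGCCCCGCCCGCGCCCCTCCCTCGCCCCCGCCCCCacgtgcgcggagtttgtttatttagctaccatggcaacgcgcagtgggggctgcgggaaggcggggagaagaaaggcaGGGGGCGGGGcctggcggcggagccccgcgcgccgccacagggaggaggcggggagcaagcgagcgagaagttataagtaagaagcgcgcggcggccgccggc
RefSeq promoters were matched for 7 of the 10 members, with none used here for *Klf5*, *Tbx3* and *Prdm14*. The Pou-Sox composite was searched on both strands and lay 75 to 62 bases before the start of *Nanog*. It occurred in 2 of 32851 promoters in the table, which are the 2 overlapping entries of *Nanog* itself. The octamer, whose last 7 letters are the first 7 of the composite, lay 186 to 179 bases before the start of *Zfp42* and was found in 1.6% of all promoters and in no other of the matched members. The Klf-type box was common, in 45.9% of all promoters and 6 of the 7 matched members, and 9 matches, as in *Klf4*, were reached by 1.31% of promoters. The letters TCAAGGTCA, for Esrrb, and TTCCNGGAA, for Stat3, were found in 0.387% and 0.913% of all promoters and in 0 of the 7. A match is a string of letters and no evidence that the factor binds there.

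UMIs of all 10 members were counted in both libraries, at a similar total. Summed, they had 35989 UMIs or 3144 CPM (3111 to 3176) in WT and 27406 UMIs or 3096 CPM (3060 to 3133) in KO cells, a ratio of KO over WT of 0.985 (0.970 to 1.001). Of the 10 members 0 reached a 1.5-fold difference either way, which 15.4% of the 9692 genes with at least 200 UMIs over both libraries did (6.30% higher and 9.06% lower in KO cells). At 2-fold the count was again 0, beside 3.30% of all genes (1.15% higher and 2.16% lower). Within that range 4 members had a ratio whose counting interval lay above 1, 4 had one below 1 and 2 overlapped 1. With counts of this size the interval was clear of 1 for 58.8% of all genes, so this split is no mark of the members. The median fold of the members, taken in either direction, was 1.18, against 1.20 over all genes, and 31.9% of genes differed by more than the farthest member did.

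**Figure D1:**
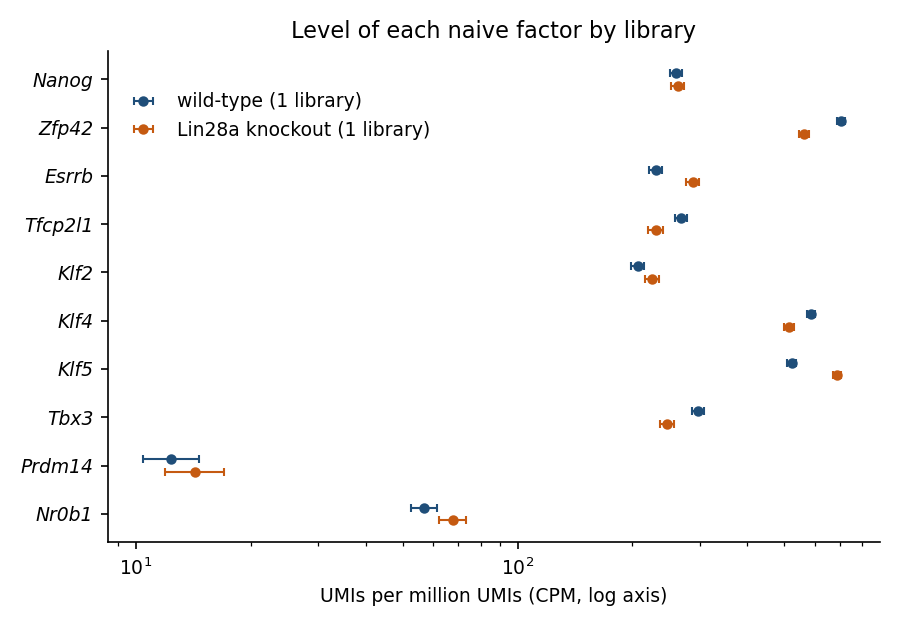
Level of each naive factor in CPM (log axis) in the WT library (blue) and the *Lin28a* knockout (KO) library (orange), 1 library each, with exact Poisson intervals that cover counting error only. *Zfp42* sits at 703 CPM in WT and 562 CPM in KO cells, *Klf5* lies the other way round at 522 and 687 CPM, and *Nanog* overlaps at 260.4 and 263 CPM.

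*Nanog* (ENSMUSG00000012396.12, chr6:122707489-122714633), a homeodomain factor at the centre of the network, had the ratio nearest to 1. It stood at 260.4 CPM (251 to 269.9) in WT and 263 CPM (252 to 273) in KO cells, a ratio of 1.01 (0.955 to 1.06). *Zfp42* (ENSMUSG00000051176.6, chr8:43295063-43306980), the zinc finger gene known as *Rex1* and widely used as a reporter of the naive state, had 703 CPM (688 to 719) and 562 CPM (547 to 578). Its ratio of 0.799 (0.771 to 0.828) was the lowest of the 10. *Nr0b1* (ENSMUSG00000025056.4, chrX:86191764-86195947), an orphan nuclear receptor also called *Dax1* that partners Pou5f1, had 56.9 CPM (52.6 to 61.4) and 67.8 CPM (62.5 to 73.4), a ratio of 1.19 (1.07 to 1.33).

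*Tfcp2l1*, *Klf4* and *Tbx3* each had a ratio below 1, as did *Zfp42*. Whether the inputs of the medium have a part in the side on which a member lay was not tested. *Tfcp2l1* (ENSMUSG00000026380.10, chr1:118627945-118685168), a grainyhead-family factor and Stat3 target, had 268 CPM (259 to 278) in WT and 229.9 CPM (220.0 to 240.1) in KO cells, a ratio of 0.857 (0.810 to 0.906). *Klf4* (ENSMUSG00000003032.8, chr4:55527143-55532466), a Krüppel-like factor and a reprogramming factor, had 588 CPM (574 to 602) and 513 CPM (499 to 529), a ratio of 0.874 (0.842 to 0.908). *Tbx3* (ENSMUSG00000018604.18, chr5:119670669-119684724), a T-box factor, had 297 CPM (287 to 307) and 247 CPM (237 to 257), a ratio of 0.831 (0.787 to 0.877). An antisense gene lies against *Tbx3*, *Tbx3os1*, but it held only 82 and 43 UMIs beside the 3399 and 2184 of *Tbx3*.

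*Esrrb* (ENSMUSG00000021255.17, chr12:86361117-86521628), an orphan nuclear receptor, lay the other way. It had 229.9 CPM (221 to 239) in WT and 288 CPM (277 to 299) in KO cells, a ratio of 1.25 (1.18 to 1.32). The other Krüppel-like factors were higher in KO cells too. *Klf5* (ENSMUSG00000005148.8, chr14:99298691-99315036) had 522 CPM (509 to 535) and 687 CPM (669.5 to 704), with the highest ratio of the 10 at 1.32 (1.27 to 1.36), and *Klf2* (ENSMUSG00000055148.7, chr8:72319033-72321656) had 206 CPM (198 to 215) and 225 CPM (215 to 235), a ratio of 1.09 (1.03 to 1.16). Of these Krüppel-like factors *Klf4* was thus lower, and *Klf2* and *Klf5* higher, in the KO library, which says nothing of their redundancy. *Prdm14* (ENSMUSG00000042414.7, chr1:13113457-13127163), which represses FGF signalling and DNA methyltransferase genes, was sparse, with 142 and 127 UMIs, 12.4 CPM (10.4 to 14.6) and 14.3 CPM (11.96 to 17.1). Its ratio of 1.16 (0.903 to 1.48) was not separable from 1 at this depth, nor was its level clear of the background described below.

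As shares of all member UMIs the balance moved from *Zfp42* to *Klf5*. *Zfp42* gave 22.4% (21.9 to 22.8) of them in WT and 18.2% (17.7 to 18.6) in KO cells, and *Klf5* gave 16.6% (16.2 to 16.99) and 22.2% (21.7 to 22.7). *Klf4* went from 18.7% to 16.6% and *Esrrb* from 7.31% to 9.29%, while *Nanog* made up 8.28% and 8.48%. *Prdm14* made up 0.395% and 0.463% and *Nr0b1* 1.81% and 2.19%. These shares compare 1 gene between the libraries, not the genes with each other.

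The ratios differed with how deeply the compared cells were sequenced. Kept cells were set in 3 classes, of 2000 to under 5000, 5000 to under 10000 and at least 10000 UMIs, holding 408, 1042 and 192 WT and 289, 507 and 314 KO cells. *Nanog* had 288, 263 and 234 CPM from the shallow to the deep class of WT cells, and 204, 236 and 299.9 CPM in KO cells. Its ratio thus went from 0.710 (0.599 to 0.838) through 0.898 (0.828 to 0.974) to 1.28 (1.16 to 1.42), and the even level over all cells is the balance of opposite values. The summed members showed the same course, with ratios of 0.877 (0.838 to 0.918), 0.920 (0.899 to 0.941) and 1.13 (1.09 to 1.16).

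Some members kept their side of 1 in every class. *Zfp42* had ratios of 0.647, 0.713 and 0.977, *Klf4* of 0.794, 0.824 and 0.915, *Tfcp2l1* of 0.814, 0.829 and 0.960 and *Tbx3* of 0.690, 0.784 and 0.990, all below 1, though in the deepest class only the interval of *Klf4* stayed clear of it. *Klf5* had ratios of 1.39, 1.25 and 1.47, each with its interval above 1, and *Esrrb* of 1.02, 1.22 and 1.38. *Klf2* went from 0.919 to 1.07 and 1.22. *Nr0b1*, at 1.40, 0.880 and 1.61, and *Prdm14*, at 0.768, 0.897 and 1.62, had intervals clear of 1 in the deepest class alone. Within a class members did pass 1.5-fold: 1 of 10, *Zfp42*, lower in the shallow class, 0 in the middle class and 2 of 10, *Nr0b1* and *Prdm14*, higher in the deep class. Of all 9692 genes 38.4%, 24.6% and 16.0% passed it either way in these classes. Composition moved with depth as well. Collagen-rich cells numbered 2, 14 and 14 in the WT classes of 408, 1042 and 192 cells. In the KO classes of 289, 507 and 314 cells they numbered 2, 4 and 2. Their part in the ratios was not tested. The median share of ribosomal protein (RP) transcripts was 9.35%, 9.39% and 9.42% in the 3 WT classes and 11.7%, 11.5% and 9.65% in the KO classes, and the median mitochondrial share was 1.45% in the shallow and 1.22% in the deep WT class and 1.38% and 1.86% in the KO classes. With RP and mitochondrial genes taken out of the denominator the 3 ratios of *Nanog* were 0.728, 0.920 and 1.29 and those of the summed members 0.900, 0.942 and 1.13, a course of similar slope.

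**Figure D2:**
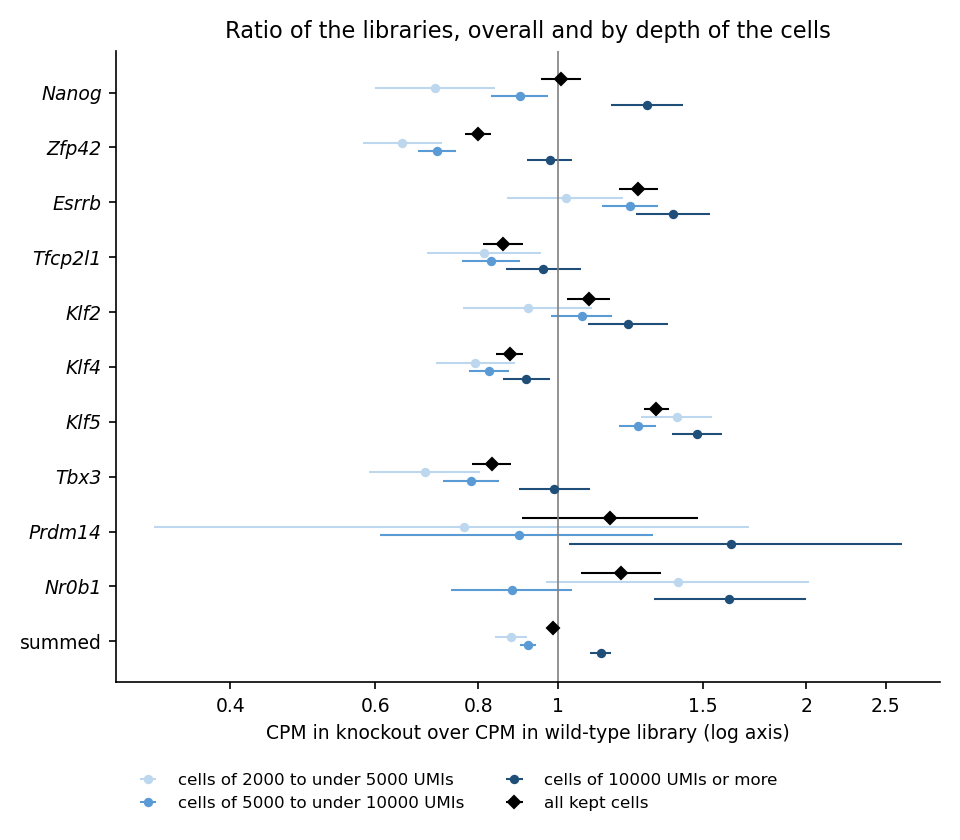
Ratio of CPM in KO over WT cells (log axis) for each naive factor and their sum, over all kept cells (black diamonds) and in 3 classes of UMIs per cell (blue, darker for deeper cells), with exact conditional intervals. *Nanog* crosses 1 from 0.710 in the shallow to 1.28 in the deep class, *Klf5* stays above 1 and *Klf4* below 1 in every class.

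The share of cells showing a member mostly lay on the same side as its level. *Zfp42* was found in 93.4% (92.1 to 94.6) of WT and 88.02% (85.96 to 89.9) of KO cells, *Klf4* in 92.4% and 88.7%, and *Klf5* in 91.05% and 94.6%. *Nanog*, even in level, was found in 72.8% and 66.0% of cells, with intervals that did not overlap. *Nr0b1* was seen in 28.3% and 33.4% and *Prdm14* in 7.86% and 10% of cells. Taken at 2000 UMIs per cell, so that depth no longer differs, *Nanog* was found in 38.9% and 34.7%, *Zfp42* in 71.2% and 61.2%, *Klf5* in 63.0% and 71.4%, *Tbx3* in 44.0% and 36.2% and *Prdm14* in 2.39% of the cells of either library.

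Collagen-rich cells, at a median of 9443 UMIs in WT and 8679.5 UMIs in KO cells, serve here as the cells that should lack the network, so that their UMIs of its members show the background. *Pou5f1* had 1 UMI in the 30 WT and 0 in the 8 KO collagen-rich cells. *Nanog* had 15.7 CPM (5.11 to 36.7) and was seen in 5 of the 30 WT cells, or 16.7%, *Zfp42* had 2 UMIs and 6.30 CPM (0.763 to 22.7), and *Klf5* had 5 UMIs and 15.7 CPM, against 267, 723 and 536 CPM in the other WT cells. *Esrrb*, *Tfcp2l1* and *Klf2* had 2 to 4 UMIs there. *Nr0b1* and *Prdm14* had 0, for which 3 UMIs would be 9.45 CPM in WT and 47.8 CPM in KO collagen-rich cells and the exact upper limits are 11.6 and 58.7 CPM. The level of *Nr0b1* in all kept cells lay above both limits of its own library. Those of *Prdm14*, 12.4 CPM (10.4 to 14.6) and 14.3 CPM, lay above the first in WT cells but overlapped the exact limit, and lay below both in KO cells, so they were not shown to exceed the background. *Nanog*, *Zfp42* and *Klf5* thus stood far above this background in the other cells.

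A pair of members did not follow this pattern. *Klf4* had 696 CPM (607 to 794) in WT and 430.0 CPM (283 to 626) in KO collagen-rich cells, found in 28 of 30 and 8 of 8 cells, beside 584 and 514 CPM in the other cells. *Tbx3* was also present, at 119.7 CPM (84.7 to 164) in 18 of 30 and 79.6 CPM (25.9 to 186) in 3 of 8 cells. Of the 6726 WT *Klf4* UMIs 221 lay in these cells. The ratio of *Klf4* between the libraries was 0.880 without them, beside 0.874 with them.

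**Figure D3:**
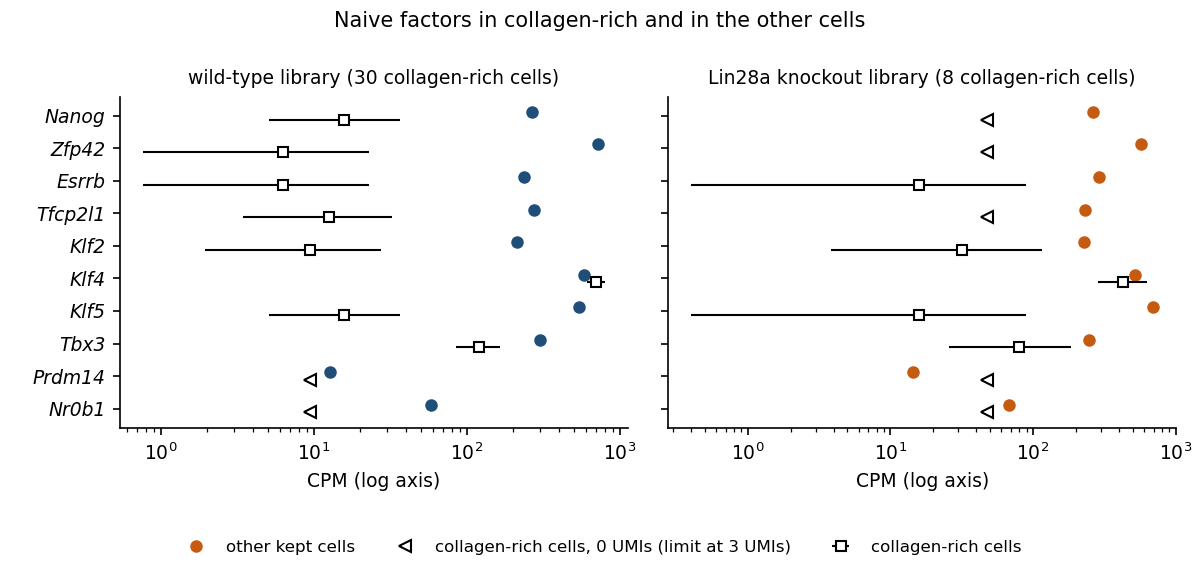
CPM (log axis) of each naive factor in collagen-rich cells (squares, with exact Poisson intervals, or triangles at the limit of 3 UMIs where none was counted) and in the other kept cells (filled circles), by library. *Klf4* lies at 696 CPM in WT collagen-rich cells beside 584 CPM in the other cells, whereas *Zfp42* lies at 6.30 beside 723 CPM.

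Variation between cells was measured as the squared coefficient of variation of the UMI share that is left when the counting variance at each cell's depth is taken off, here called excess variation. A value of 0 means no more spread than counting gives. Over the 10 members the median was 0.206 in WT and 0.236 in KO cells. Without collagen-rich cells it was 0.162 and 0.230, so part of the WT value came with those cells. The values by member and by range of level that follow include them. The 8 members between 100 and 1000 CPM had medians of 0.186 and 0.226, beside 0.172 and 0.148 over the 1824 and 1734 genes in that range, and 4 and 5 of the 8 lay above the median of these genes.

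*Nanog* varied most among those 8 in WT cells, at 0.299, a coefficient of variation of 54.6%. It lay at 0.370 or 60.9% in KO cells, and 79.8% and 87.3% of genes in the range varied less. Its values hardly rested on single cells, as they were 0.276 and 0.351 without the 5 cells richest in it. The counts per cell ran from a median of 1 UMI to 4 and 5 at the 90th percentile and 13 and 14 at the most. *Esrrb* was the most even, at 0.0990 and 0.0822, with 25.1% and 25.3% of genes varying less, and *Tfcp2l1* followed at 0.138 and 0.114.

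*Zfp42* stood at 0.205 and 0.229, *Klf2* at 0.208 and 0.222, *Tbx3* at 0.168 and 0.244 and *Klf5* at 0.151 and 0.131. Of these *Tbx3* differed most between the libraries, with 0.148 and 0.2003 without the 5 cells richest in it. *Klf4* had 0.209 in WT and 0.437 in KO cells, but this difference rested on few cells, 1 of which held 85 *Klf4* UMIs where the 90th percentile was 9. Without the 5 cells richest in *Klf4* the values were 0.163 and 0.194. *Prdm14*, at 0.942 and 0.621, and *Nr0b1*, at 0.607 and 0.665, are too sparse for such a value to be steady, and *Prdm14* went to 0.265 and 0.152 without its 5 richest cells.

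**Figure D4:**
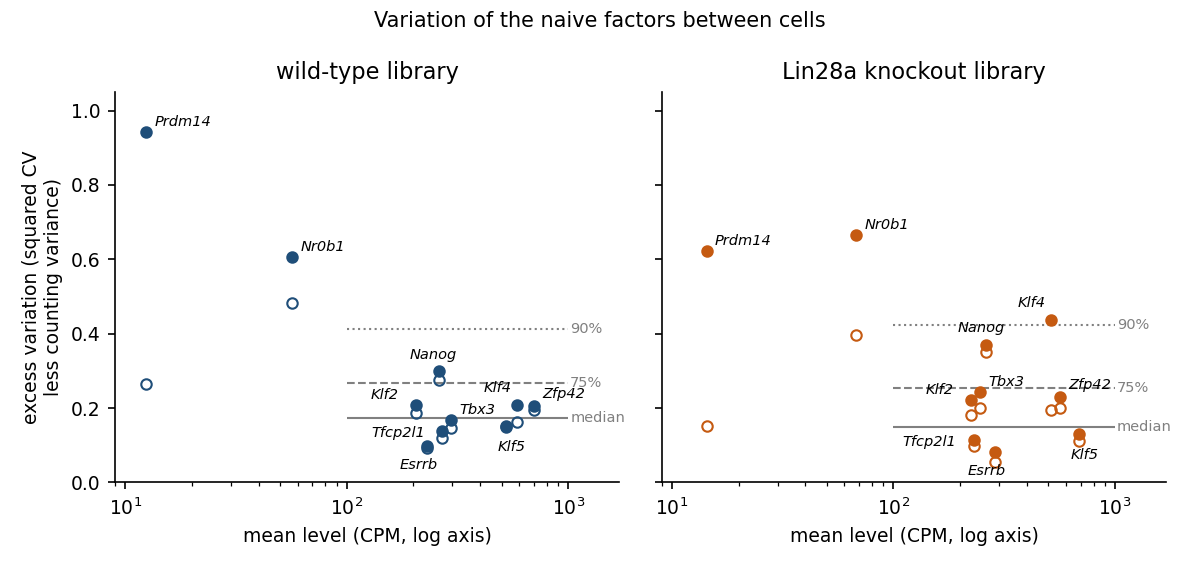
Excess variation between cells (squared coefficient of variation less counting variance) against mean level in CPM (log axis) for the 10 factors, with all kept cells (filled) and without the 5 cells richest in that factor (open); grey lines give the median, 75% and 90% points of all genes between 100 and 1000 CPM. *Nanog* lies at 0.299 and 0.370, *Esrrb* at 0.0990 and 0.0822, and *Klf4* in KO cells drops from 0.437 to 0.194.

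The members were weakly but mostly positively related over cells. Pearson's r on log-normalised UMIs (UMIs per 10000, 1 added) had a median of 0.0674 over the 45 pairs in the 1642 WT cells and 0.0936 in the 1110 KO cells, with 41 and 45 pairs above 0. All pairs of the 1560 genes at 100 to 1000 CPM in both libraries had medians of 0.0137 and 0.0271, which also lie above 0. Their share of pairs above 0 was not counted, so the counts of 41 and 45 are no mark of the members. Of the 28 pairs among the 8 members in this range, 9 and 18 reached 0.1, which 10.5% and 23.5% of all such gene pairs did. These cells share library and depth effects, and r of this size in sparse counts is a description only. Thinned to 2000 UMIs per cell the medians were 0.0170 and 0.0284. Without collagen-rich cells they were 0.0375 and 0.0921, and 6 and 16 of the 28 pairs reached 0.1, beside 9.54% and 23.2% of gene pairs.

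The pair with the highest r in both libraries was *Nanog* and *Zfp42*, whose promoter windows are printed above, at 0.295 and 0.313. At 2000 UMIs per cell r was 0.0875 and 0.137 and no longer the highest, with *Zfp42* and *Klf5* at 0.0884 in WT and *Zfp42* and *Tbx3* at 0.145 in KO cells. With the counting noise taken off the covariance, the correlation was 0.842 in WT and 0.630 in KO cells, and without collagen-rich cells it was 0.814 and 0.621. The noise-corrected correlation of *Tbx3* with *Nanog* was 0.604 and 0.540, and with *Zfp42* 0.463 and 0.537. *Esrrb* and *Tfcp2l1* had 0.412 and 0.542, though in WT cells only 0.0651 was left without collagen-rich cells. The value of 0.741 for *Klf2* and *Prdm14* in KO cells rests on 127 *Prdm14* UMIs.

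After the correction the median over the 45 pairs was 0.270 in WT and 0.177 in KO cells, and 40 pairs were above 0 in each. Without collagen-rich cells the medians were 0.172 and 0.159, with 34 and 36 pairs above 0. How many of all gene pairs lay above 0 after the correction was not counted, so these counts are no mark of the members. Among the 28 pairs in the range, 14 and 7 reached 0.3, a level that 27.6% and 27.0% of gene pairs reached. The WT count rested on the collagen-rich cells: without them 7 and 7 pairs reached 0.3, beside 26.5% and 27.1% of gene pairs. These shares are over 990528 and 1014600 of the 1216020 gene pairs, and neither library then had a higher share than the gene pairs counted. With all cells the median corrected value was 0.302 and 0.165 over the 28 pairs, beside 0.0336 and 0.0157 over gene pairs in the range. By member, *Klf4* had the lowest median corrected value over its 9 pairs in WT cells, 0.0242, and 0.129 in KO cells. This place was also set by the collagen-rich cells, since without them its WT median was 0.0922, above those of *Klf2* at -0.00287, *Tfcp2l1* at 0.0785 and *Esrrb* at 0.0873.

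**Figure D5:**
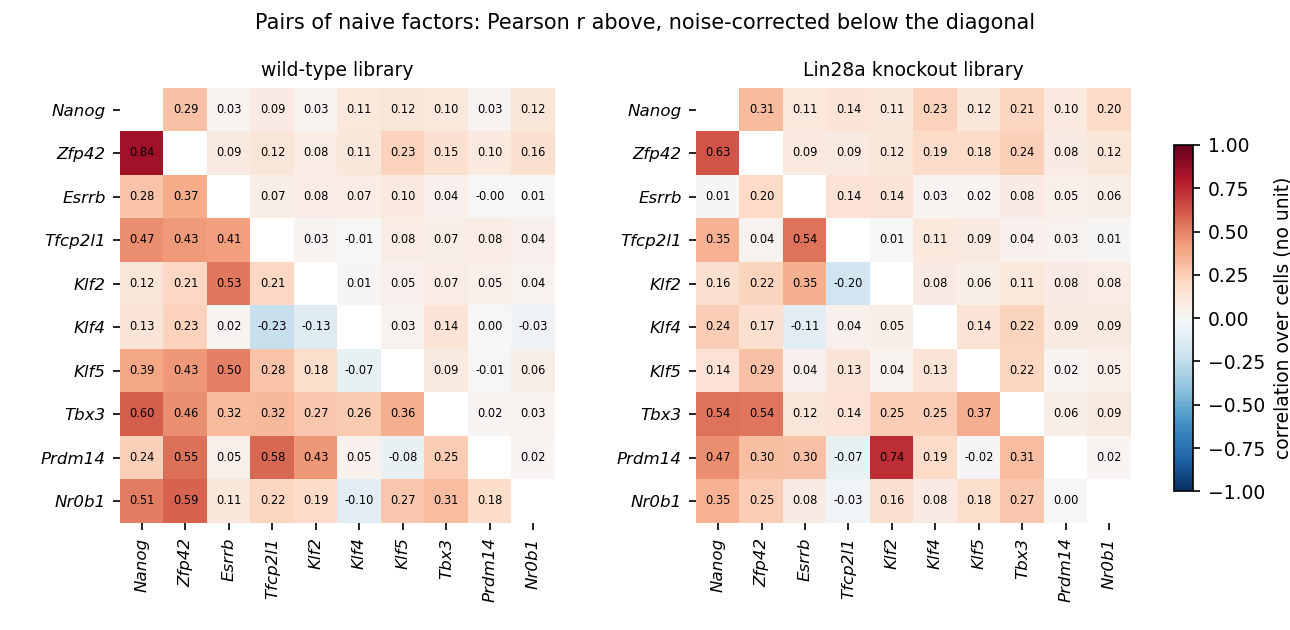
Correlation over cells for each pair of naive factors in the WT library (left, 1642 cells) and the KO library (right, 1110 cells), with Pearson's r on log-normalised UMIs above and the noise-corrected correlation below the diagonal. The square of *Nanog* and *Zfp42* is the darkest of WT cells at 0.842 and stands at 0.630 in KO cells.

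The relation of *Nanog* and *Zfp42*, a pair chosen for its r, can also be written in levels, by splitting cells by *Zfp42*. This is no second line of evidence. At 2000 UMIs per cell, 471 WT cells had 0, 507 had 1 and 664 had at least 2 *Zfp42* UMIs. *Nanog* stood at 210.2, 273 and 289.9 CPM in them, and cells with at least 2 exceeded those with 0 by a ratio of 1.38 (1.16 to 1.65). In the KO library 402, 368 and 340 cells fell in these classes, *Nanog* stood at 190.3, 246 and 315 CPM and the ratio was 1.65 (1.34 to 2.05). *Tbx3* had ratios of 1.22 (1.04 to 1.43) and 1.77 (1.43 to 2.19). *Esrrb*, at 1.26 (1.053 to 1.51) and 1.26 (1.03 to 1.55), and *Klf5*, at 1.22 (1.08 to 1.38) and 1.16 (1.02 to 1.31), were also clear of 1 in both libraries with all cells. How many of all genes were clear of 1 in these splits was not counted, so such values are no mark of the members. *Klf4* had 0.975 (0.873 to 1.09) in WT and 1.27 (1.10 to 1.48) in KO cells. Of the core factors, *Pou5f1* had ratios of 0.985 (0.898 to 1.08) and 1.06 (0.955 to 1.17), and *Sox2* had 1.29 (1.04 to 1.62) in WT and 0.750 (0.519 to 1.07) in KO cells. Split by *Nanog* in the same way, *Zfp42* had ratios of 1.22 (1.08 to 1.37) and 1.34 (1.12 to 1.60), and *Tbx3* 1.09 (0.897 to 1.32) in WT, which overlaps 1, and 1.46 (1.13 to 1.88) in KO cells. *Tfcp2l1*, at 1.52 (1.18 to 1.94), and *Klf4*, at 1.45 (1.20 to 1.73), were also above 1 in KO cells. In WT cells they overlapped 1, at 1.13 and 1.08. *Klf2*, at 0.862, and *Klf5*, at 0.994, overlapped 1 in KO cells. Split by *Klf4*, *Nanog* had 1.19 (1.004 to 1.41) and 1.67 (1.36 to 2.05). With collagen-rich cells left out of the *Zfp42* split, *Nanog* had ratios of 1.30 (1.09 to 1.55) and 1.62 (1.31 to 2.01). In WT cells those of *Tbx3*, 1.17 (0.9997 to 1.37), *Esrrb*, 1.18 (0.986 to 1.41), and *Sox2*, 1.21 (0.970 to 1.52), then overlapped 1, while *Klf5* had 1.14 (1.01 to 1.29), and in KO cells *Tbx3* had 1.74, *Esrrb* 1.24 and *Klf5* 1.14, all clear of 1. The classes also differed in composition, since the median RP share was 9.84%, 9.51% and 8.93% in WT and 12.7%, 10.5% and 9.68% in KO cells, and the part of this in the ratios was not tested.

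At 2000 UMIs per cell a median of 4 of the 10 members was found in either library. None or 1 was found in 81 WT and 77 KO cells, of which 23 and 8 were collagen-rich, and none in 10 and 14, of which 5 and 1 were collagen-rich. Most of the 30 collagen-rich WT cells thus still showed a member, mainly *Klf4*, so that these counts do not tell which cells lack the network. The share of UMIs on the members ran from 0.148% at the 5th to 0.5002% at the 95th percentile of WT cells and from 0.125% to 0.495% of KO cells. The summed members had an excess variation of 0.0744 and 0.0734, and of 0.0518 and 0.0685 without collagen-rich cells, and with all cells this lay below that of each single member.

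Over cells thinned to 2000 UMIs the summed members were set against gene groups. Their r with the share of RP genes was -0.138 in WT and -0.350 in KO cells, and with that of mitochondrial genes 0.150 and 0.369. Leaving out collagen-rich cells gave -0.221 and -0.346 for RP genes and 0.182 and 0.368 for mitochondrial genes. In WT cells r was as large with S phase genes, at 0.225, core pluripotency genes, at 0.172, and G2 and mitosis genes, at 0.151, but without collagen-rich cells these were 0.0899, 0.0417 and 0.0501. With the other naive-state genes r was 0.0922 and -0.00948, and -0.0520 and -0.0911 without those cells. The noise-corrected values without them were -0.455 and -0.557 for this list, in which 1 gene held 13888 of 27547 WT UMIs. They were -0.649 and -0.724 for RP genes. Core pluripotency genes had 0.303 and 0.318, and formative and primed epiblast genes 0.342 and 0.355. The plain r of this epiblast list was 7.1e-05 in WT and 0.115 in KO cells. Without collagen-rich cells it was -0.0115 and 0.109. The list held only 2066 WT and 1161 KO UMIs, so no relation in WT cells is drawn from its corrected value. By r with the summed members, averaged over the libraries, the 10 leading genes of the 3167 with at least 500 UMIs in each library were *Ptma*, *Npm1*, *mt-Nd1*, *Hnrnpf*, *Set*, *Ywhaz*, *mt-Atp6*, *Pabpc1*, *Hnrnpa1* and *mt-Co1*, with mean r from 0.277 for *Ptma* to 0.218 for *mt-Co1*. The libraries ranked genes differently: *mt-Co1* was 81st in WT with r of 0.110 and 3rd in KO cells with 0.326, and 23 of the 50 leading genes of each library, 46%, were shared. All 10 are abundant, at 855 to 6023 CPM, and the part of their abundance in r was not tested. The 5 lowest were *S100a6* at -0.284, *Col1a1* at -0.243, *Ccnd2*, *Lgals1* and *Rplp0*. In WT cells 4 of these rested largely on the collagen-rich cells: without them *S100a6* went from -0.321 to -0.155, *Col1a1* from -0.309 to -0.0999, *Ccnd2* from -0.292 to -0.0915 and *Lgals1* from -0.248 to -0.117. Among the members themselves, each set against the sum of the others and ranked by the mean of both libraries, *Zfp42* came first at rank 62 with r of 0.111 and 0.190, then *Nanog* at rank 124 and *Tbx3* at rank 145, while *Klf2* came last at rank 1378. In WT cells alone *Klf5*, at rank 153, came before *Nanog* at 253 and *Tbx3* at 338. Without collagen-rich cells r of *Zfp42* was 0.0727 in WT and 0.177 in KO cells.

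The genes around the network were described by lists, counting members at least 1.5-fold apart against the 6.30% higher and 9.06% lower over all genes. Of 8 core pluripotency genes 1 was higher and 1 lower by this measure: *Fgf4*, the ligand that drives exit from the naive state, had a ratio of 1.66 (1.48 to 1.86), and *Sox2*, the partner of Pou5f1, one of 0.558 (0.513 to 0.608). *Pou5f1* itself stood at 844 and 1043 CPM, a ratio of 1.24 (1.20 to 1.27). Of 11 other naive-state genes with enough UMIs 0 passed the fold, from *Fbxo15* at 0.764 to *Mylpf* at 1.34, and the median ratio was 1.17.

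Of 7 genes of LIF and Stat3 signalling 1 passed, *Il6st*, the shared receptor subunit gp130, at 0.576 (0.478 to 0.691). *Pim3* was the highest at 1.39 (1.29 to 1.501). The median ratio of the list was 0.861 and the ratio of its summed UMIs 0.994, beside a median of 1.01 over all genes. Of 8 Wnt and Gsk3 genes 3 were lower, led by *Gsk3b*, the kinase that 2i inhibits, at 0.603 (0.556 to 0.653), while *Tcf7l1*, the repressor of the naive network, stood highest at 1.41 (1.34 to 1.49), and the median ratio was 0.795 beside a summed ratio of 0.991. Of 7 targets of FGF and ERK 1 was higher, *Etv4* at 1.99 (1.73 to 2.28), and 1 lower, *Egr1* at 0.637 (0.596 to 0.680), and the median ratio was 0.935. Of 8 family relatives of the members 1 passed, *Klf6* at 0.662 (0.608 to 0.720), and *Klf16* was the highest at 1.44 (1.26 to 1.65).

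Most of the listed genes of later epiblast states had fewer than 200 UMIs over both libraries. Of 12 formative and primed epiblast genes only 4 had 200 UMIs, the whole list summed to 180.5 and 131 CPM, and *Zic2*, a primed epiblast factor, was lowest at 0.662 (0.531 to 0.823) and *Zic5* highest at 0.746 (0.647 to 0.860). Of 10 primitive endoderm genes 3 had enough UMIs, of which 2 were lower, with *Lamb1* at 0.551 (0.415 to 0.726) and *Lama1* at 1.34 (1.08 to 1.65). Laminins and *Sparc* are also made by feeder fibroblasts, whose share differed between the libraries, and its part here was not tested. Among 10 S phase and 10 G2 and mitosis genes 1 each was lower, *Pcna* at 0.643 (0.616 to 0.671) and *Mki67* at 0.584 (0.537 to 0.635), and *Mcm5* and *Plk1* were the highest at 1.39 (1.31 to 1.47) and 1.33 (1.22 to 1.45). Of the 5 fibroblast genes with at least 200 UMIs *Col1a2* was lowest at 0.225 (0.2001 to 0.253) and *Fn1* highest at 0.886 (0.847 to 0.926).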

How the data were processed

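Single-cell RNA-seq was analysed from 2 inDrop libraries, 1 wild-type and 1 *Lin28a* knockout. Following a published pipeline for inDrop reads, the authors produced expression matrices and deposited them as raw counts of UMIs for each gene in each barcode. Per the labels the processing notes name mm10 and Seurat 2.3.4, and the aligner is not given in the sources used here. How reads shared with gene copies were divided is not given either, and the deposited ambiguous counts of the members were 4 and 2 UMIs. Of 54146 identifiers, 54079 were named through a gene table without their version, and coordinates are from GENCODE M21 of GRCm38. The members, lists and cell classes were chosen with earlier results of these data known.

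Barcodes with at least 2000 UMIs and at most 20% mitochondrial UMIs were kept, a stricter minimum than the 500 UMIs of the study. The mitochondrial limit removed 0 of them. Depth ran from 2010 to 27958 UMIs in the wild-type and 2004 to 28734 UMIs in the knockout library. Barcodes are numbered, without their sequence, so those shared between the libraries could not be counted. Scrublet (scanpy 1.11.5, seed 0) marked 30 and 11 cells, which were kept, and the thinning of cells used seed 1. RP share was taken over 81 genes. Genes were compared where they had at least 200 UMIs over both libraries. Excess variation and noise-corrected correlation are moment estimates with depth as exposure. Named genes were the members, *Lin28a*, the highest and lowest ratio of each list, and the 10 genes most and 5 least like the summed members over thinned cells. Other genes (*Pou5f1*, *Sall4*, *Utf1*, *Tdgf1*, *Tbx3os1*, *Sparc*) serve as checks. Alternatives were other minimums of UMIs, denominators, scaling, cell weights and cell filters.

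The calculations were tested on simulated data with 200 genes changed 2-fold. Of these 200 came within 0.5 (log2) of the true change, and of 9598 genes compared 4 unchanged ones passed 1.5-fold. Both simulated libraries took their levels from wild-type cells and held no spread between cells, clones or cultures. The count of 4 thus covers counting error alone and gives no false rate for the real libraries. In simulated draws for *Nanog* and *Zfp42* the noise-corrected correlation had a standard deviation of 0.056 to 0.160. Calculations used scipy 1.17.1, pandas 2.3.3, numpy 2.4.6 and matplotlib 3.10.9 under Python 3.11.15.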

Additional observations from a re-analysis of the deposited data

Results flagged for a closer look

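Barcodes under the minimum of 2000 UMIs, which enter no comparison above, also held the naive factors. In the wild-type library 2472 barcodes of under 500 UMIs had 1205 UMIs of the 10 members, 2745 CPM (2592 to 2904), and 215 barcodes of 500 to under 2000 UMIs had 565, 2938 CPM (2700.3 to 3190.1). In the knockout library 4423 barcodes of under 500 UMIs had 1912 UMIs of them, 2840.2 CPM (2714 to 2970.5), and 527 of 500 to under 2000 UMIs had 1548, 3075 CPM (2924 to 3232). All 4 values lie far above the 4.46 to 15.6 CPM that 3 UMIs would give, and they were 0.873 to 0.993 of the level in the kept cells of the same library. The sum holds opposite values: in barcodes of under 500 UMIs *Zfp42* stood at 0.615 and 0.676 of its level in kept WT and KO cells and *Klf4* at 0.690 and 0.772, but *Tbx3* at 1.37 and 1.47. What these barcodes are, shallow cells or free RNA, was not tested.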

How the results depend on the processing

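The ratio of the summed members stayed between 0.952 and 1.001 over 10 alternatives. It was 1.001 with at least 5000 UMIs per cell, 1.001 without mitochondrial and RP genes in the denominator, 0.959 under median of ratios scaling, which shifts all ratios by -0.04 on the log2 scale, and 0.952 with cells weighted equally. In 6 it stayed within its counting interval. The count of members past 1.5-fold was 0 under 14 of 16 alternatives, the others being the shallow depth class with 1 and the deep class with 2. The 2-fold setting and the lower UMI limits per gene could give only 0, since all 10 members had at least 200 UMIs and none passed 1.5-fold. Genes past it numbered 1489 of 9692 in the main comparison and 320 of 9692 at 2-fold. With at least 50 UMIs they numbered 3085 of 15223, and with at least 1 UMI per library 11019 of 29899. With cells weighted equally *Nanog* had a ratio of 0.908 and *Zfp42* of 0.750, and the other 8 kept to their intervals over the 10 alternatives that used whole libraries. In the depth classes members did leave these intervals, as *Klf5* did at 1.47 in the deep class. The median r over pairs was 0.0170 and 0.0284 in wild-type and knockout cells thinned to 2000 UMIs, 0.270 and 0.177 when noise-corrected, and 0.172 and 0.159 when collagen-rich cells were also left out, a choice made after seeing the data. In the wild-type library it was 0.0375 with collagen-rich cells left out alone. The cause of these shifts was not tested. Median excess variation kept within 1.5 times under 6 alternatives per library. In wild-type cells it was lowest, at 0.162, with collagen-rich cells left out. *Prdm14* and *Nr0b1* are limited by depth. No paired analysis was possible because each group has 1 library. The denominator without RP genes by depth class and the removal of the 5 richest cells were also added after seeing the data, as were the depth classes as alternatives. Pairs at a corrected correlation of 0.3 numbered 14 in WT cells and 7 without collagen-rich cells, and the median of *Klf2* turned from 0.207 to -0.00287.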
